A study of Homo sapiens with 10 samples.

Results

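The 10 genes described here encode subunits of the BAF (SWI/SNF) chromatin remodelling complexes: SMARCA4, SMARCA2, ARID1A, ARID1B, SMARCC1, SMARCC2, ACTL6A, ACTL6B, PHF10 and DPF1. They were taken by symbol from a count table of 31017 genes. Human ESCs of the established line H9 (WA09) were compared with neuroectodermal cells (NECs) derived from the same line and harvested on day 7. RNA-seq of polyadenylated RNA and promoter capture Hi-C (PCHi-C) were each available for 2 biological replicates per cell type. Neither group carried an engineered allele, and all cultures descended from 1 cell line, so the replicates measure the spread between cultures and not between donors.

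BAF complexes use the energy of ATP to slide or evict nucleosomes and thereby open chromatin at promoters and enhancers. Most positions in the complex can be filled by one of several related proteins, and the choice changes as neural progenitors become neurons. In that textbook switch, the progenitor subunits ACTL6A (BAF53A) and PHF10 (BAF45A) give way to ACTL6B (BAF53B) and DPF1 (BAF45B). Mouse ESCs are known for a form of the complex built on the ATPase SMARCA4 with SMARCC1 and ARID1A. The data therefore bear on how these genes were expressed, and which fragments their promoters contacted, before and after the first step of neural differentiation.

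In PCHi-C, genomic fragments cut by HindIII that contain a promoter are captured as baits, and a fragment ligated to a bait more often than a distance model predicts is a promoter-interacting region (PIR). The start of each of the 10 genes lay in 1 bait, against 22223 of the 31017 genes overall. All 10 bait fragments began and ended at a HindIII site in the GRCh37 genome. The 250 bases before each gene start lay inside the bait, and the sequence is given for 5 genes. SMARCA4, SMARCC2 and DPF1 were among the genes whose PIR numbers differed between the cell types without overlap of the replicates. ARID1B differed in this way as well, and its sequence is not printed. ACTL6A and ACTL6B were chosen because they are the alternative subunits of the neuronal switch. Capitals mark matches to the GC box GGGCGG, to CCAAT or to TATAAA on either strand.
SMARCA4 (GRCh37 chr19:11071348-11071597, plus strand): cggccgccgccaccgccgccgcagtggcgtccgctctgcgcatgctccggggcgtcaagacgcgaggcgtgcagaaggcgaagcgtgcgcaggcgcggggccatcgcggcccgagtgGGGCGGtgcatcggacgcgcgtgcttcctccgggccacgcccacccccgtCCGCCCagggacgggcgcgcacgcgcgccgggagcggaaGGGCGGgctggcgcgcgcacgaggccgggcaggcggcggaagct
SMARCC2 (GRCh37 chr12:56583352-56583601, minus strand): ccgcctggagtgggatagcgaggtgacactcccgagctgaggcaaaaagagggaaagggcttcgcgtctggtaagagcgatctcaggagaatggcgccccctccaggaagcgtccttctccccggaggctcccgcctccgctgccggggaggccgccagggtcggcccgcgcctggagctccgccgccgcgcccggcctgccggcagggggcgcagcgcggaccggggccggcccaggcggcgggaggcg
DPF1 (GRCh37 chr19:38720355-38720604, minus strand): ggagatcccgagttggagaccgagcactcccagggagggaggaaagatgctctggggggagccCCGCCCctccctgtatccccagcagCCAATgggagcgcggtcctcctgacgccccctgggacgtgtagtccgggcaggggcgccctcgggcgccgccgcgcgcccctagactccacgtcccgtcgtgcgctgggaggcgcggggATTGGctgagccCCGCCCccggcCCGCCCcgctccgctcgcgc
ACTL6A (GRCh37 chr3:179280418-179280667, plus strand): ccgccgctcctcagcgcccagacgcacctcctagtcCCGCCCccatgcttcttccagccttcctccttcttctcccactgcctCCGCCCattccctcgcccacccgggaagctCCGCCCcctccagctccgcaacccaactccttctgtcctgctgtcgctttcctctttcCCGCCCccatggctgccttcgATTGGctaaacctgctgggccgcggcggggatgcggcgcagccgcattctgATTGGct
ACTL6B (GRCh37 chr7:100254085-100254334, minus strand): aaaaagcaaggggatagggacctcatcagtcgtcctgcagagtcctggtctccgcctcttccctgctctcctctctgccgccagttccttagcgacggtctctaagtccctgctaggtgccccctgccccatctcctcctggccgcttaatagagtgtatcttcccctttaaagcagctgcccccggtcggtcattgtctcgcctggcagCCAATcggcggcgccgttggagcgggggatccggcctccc

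The GC box, a binding site of SP and KLF factors, was found before 7 of the 10 genes and before 36.5% of all 30965 gene starts with a complete window. ACTL6A had 4 matches and ACTL6B had none. CCAAT, the core of the NF-Y site, was found before 3 of the 10 genes (ACTL6A, ACTL6B and DPF1) and before 32.3% of all gene starts. TATAAA was found before none of the 10 genes and before 11.5% of all gene starts. All gene starts here include those outside any bait, whereas the 10 lie in baits, and values over baited genes alone were not computed. The windows of the 10 genes held 15 (ACTL6B) to 49 (ARID1B) CpG dinucleotides, all above the median of 8 over all gene starts. Not all of these windows were free of transcribed sequence: by the gene annotation, exons covered the whole window of ARID1B and PHF10 (250 of 250 bases each), 156 bases of that of SMARCA2 and 18 bases of that of ARID1A, and none of the other 6, which include the 5 printed. A match is only a match of letters, and binding was not measured.

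Expression was measured as reads per gene, with library totals of 19234087 to 25356382 reads counted on genes. Levels are given as CPM (reads scaled to a library of fixed size, normalized by the TMM method), and differences as log2 fold changes of NECs over ESCs from edgeR's quasi-likelihood test over 17564 genes. Of the 10 BAF genes, 9 passed the filter on low counts and ACTL6B did not. Of these 9 genes, 1 rose (SMARCC2) and 1 fell (SMARCA2) at an adjusted p under 0.05, and 7 did not pass. Over all genes tested, 31.5% rose and 29.7% fell at the same threshold. None of the 9 genes also passed an absolute log2 fold change of 1.5 in edgeR, which 21.0% of all genes did, and DESeq2 called 1 at that fold (SMARCA2). The median log2 fold change was 0.0070 over the 9 genes and 0.01 over all genes tested.

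The cell type labels were checked against lists of 10 markers. All 10 pluripotency markers fell and all 10 neuroectoderm markers rose. Of 10 markers of postmitotic neurons 6 rose and 4 did not pass, of 10 neural crest markers 6 rose and 4 did not pass, and of 10 mesendoderm markers 8 fell and 2 did not pass. Libraries of 1 cell type also stood apart. The neural crest markers summed to 261 CPM in NEC replicate 1 and 130 CPM in NEC replicate 2 (SOX10 was at 18.4 and 0.689 CPM, TFAP2B at 15.9 and 1.46 CPM), against 158 and 77.3 CPM in the ESC replicates. EDNRB made up most of the ESC sums (133 and 53.3 CPM) and was at 61.7 and 52.8 CPM in NECs. The mesendoderm markers summed to 93.5 CPM in ESC replicate 1 and 222 CPM in ESC replicate 2, and the part of these differences in the values of the BAF genes was not tested. The NEC libraries still held 1084 and 1670 summed CPM of the pluripotency markers, against 6584 and 7075 in ESCs. In bulk RNA, fewer cells of a type and less RNA per cell cannot be told apart. The 2 ESC libraries shared a sequencing lane and the 2 NEC libraries shared a different lane, so lane and cell type cannot be told apart.

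**Figure D1:**
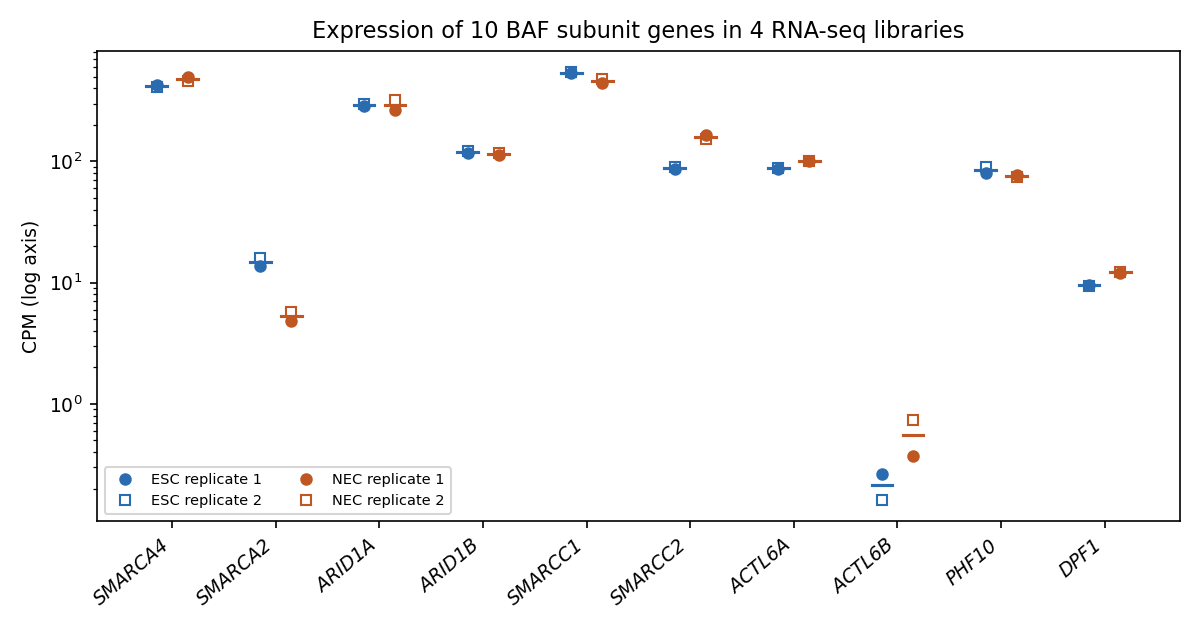
Expression in CPM (log axis) of the 10 BAF subunit genes in the 4 RNA-seq libraries, ESC in blue and NEC in orange, with replicate 1 as circles, replicate 2 as open squares and horizontal lines at the means of 2 libraries. SMARCC2 lay higher and SMARCA2 lower in both NEC libraries, and ACTL6B was below 1 CPM in all 4.

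The ATPases SMARCA4 (BRG1) and SMARCA2 (BRM) are the alternative motors of the complex. SMARCA2 (chr9:2015342-2193624) had 261 and 394 counts in the ESC libraries and 104 and 141 in the NEC libraries, or 13.8 and 15.9 CPM against 4.87 and 5.72. Both NEC libraries lay below both ESC libraries. Its level fell from 14.9 ± 1.49 to 5.29 ± 0.60 CPM (mean ± SD, n = 2 here and below), which is −1.49 ± 0.18 (SE) as a log2 fold change with an adjusted p of 0.000719 in edgeR, just inside the fold threshold. SMARCA4 (chr19:11071598-11172958) was at 426 and 409 CPM in ESCs and at 499 and 463 CPM in NECs. The NEC values lay above the ESC values, but the log2 fold change, 0.20 ± 0.10 (SE) with an adjusted p of 0.114 in edgeR, did not pass.

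ARID1A and ARID1B are the alternative large subunits with an ARID DNA-binding domain that define canonical BAF. ARID1A (chr1:27022524-27108595) was at 285 and 296 CPM in ESCs and 264 and 320 CPM in NECs, and the 2 cell types overlapped. ARID1B (chr6:157099063-157530401) was at 117 and 122 CPM in ESCs and 112 and 118 CPM in NECs, again with overlap. Their log2 fold changes were 0.0070 (SE 0.12, edgeR adjusted p = 0.963) and −0.052 (SE 0.08, edgeR adjusted p = 0.621). The direction of neither was stable, since ARID1A turned negative with DESeq2's size factors and ARID1B turned positive with library size alone.

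SMARCC1 (BAF155) and SMARCC2 (BAF170) form the scaffold on which the complex assembles. SMARCC2 (chr12:56556767-56583351) had 86.9 and 89.3 CPM in the ESC libraries and 165 and 154 CPM in the NEC libraries. The NEC libraries lay well apart from the ESC libraries. Its mean rose from 88.1 ± 1.68 to 160 ± 7.42 CPM, which is 0.86 ± 0.09 (SE) as a log2 fold change with an adjusted p of 0.000366 in edgeR, or 1.81-fold. SMARCC1 (chr3:47626762-47823596) was at 533 and 545 CPM in ESCs and 444 and 479 CPM in NECs, with the NEC values below. Its log2 fold change, −0.22 ± 0.10 (SE) with an adjusted p of 0.0914 in edgeR, did not pass, and DESeq2 gave an adjusted p of 0.0452. The counting ignored strand, and SMARCC2 overlaps MYL6 on the opposite strand. MYL6 itself fell from 756 ± 11.1 to 582 ± 62.6 CPM (−0.38 ± 0.12 SE on the log2 scale, adjusted p = 0.0294 in edgeR), the direction opposite to that of SMARCC2.

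ACTL6A and ACTL6B are actin-related subunits, the former of dividing cells and the latter of neurons. ACTL6A (chr3:179280668-179306196) was at 87.3 and 88.5 CPM in ESCs and at 101 CPM in both NEC libraries, without overlap. The log2 fold change, 0.19 ± 0.08 (SE) with an adjusted p of 0.0772 in edgeR, did not pass. MRPL47, which overlaps ACTL6A on the opposite strand, fell from 68.6 ± 6.10 to 44.9 ± 3.59 CPM (adjusted p = 0.0034 in edgeR). ACTL6B (chr7:100240720-100254084) had 5 and 4 counts in the ESC libraries and 8 and 18 in the NEC libraries, at most 0.730 CPM. The NEC counts were higher in both libraries, but NEC replicate 2 had more than 2 times the count of NEC replicate 1. Without the filter on low counts its log2 fold change was 1.40 (SE 0.67, edgeR adjusted p = 0.0876), and DESeq2 gave an adjusted p of 0.424.

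PHF10 and DPF1 are paired PHD-finger subunits, PHF10 being a member of the PBAF form. DPF1 (chr19:38701646-38720354), a neuronal form, was at 9.64 and 9.38 CPM in ESCs and 12.1 and 12.3 CPM in NECs. The cell types did not overlap, and the log2 fold change, 0.36 ± 0.15 (SE) with an adjusted p of 0.0745 in edgeR, did not pass. PHF10 (chr6:170104001-170124151) was at 80.9 and 89.7 CPM in ESCs and 77.6 and 74.8 CPM in NECs. The NEC values were below the ESC values, at −0.16 ± 0.09 (SE) on the log2 scale with an adjusted p of 0.169 in edgeR, which did not pass. C6orf120, which overlaps PHF10 on the opposite strand, was at 58.8 ± 3.48 and 50.9 ± 1.88 CPM. The summed level of the 10 postmitotic neuron markers was 270 and 282 CPM in ESCs and 353 and 318 CPM in NECs. TUBB3 made up most of each sum (211 and 226 CPM in ESCs, 214 and 224 CPM in NECs). Of the 10 markers 6 rose, by 4.12-fold (MAPT) to 37.3-fold (ELAVL3), and 4 did not pass. The part of these markers in the values of DPF1 and ACTL6B was not tested.

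Levels of different genes were compared as RPKM (CPM divided by the exon length in kilobases). In ESCs the order was SMARCC1 (70.7 ± 1.14), SMARCA4 (26.8 ± 0.76), ACTL6A (24.0 ± 0.22), ARID1A (18.2 ± 0.50), PHF10 (14.3 ± 1.04), SMARCC2 (9.60 ± 0.18), ARID1B (2.60 ± 0.08), DPF1 (1.98 ± 0.04), SMARCA2 (0.780 ± 0.08) and ACTL6B (0.0898 ± 0.03). No neighbours in this order overlapped between libraries. In NECs the order was SMARCC1 (60.5 ± 3.26), SMARCA4 (30.9 ± 1.64), ACTL6A (27.4), ARID1A (18.3 ± 2.48), SMARCC2 (17.4 ± 0.81), PHF10 (12.7 ± 0.34), DPF1 (2.54 ± 0.04), ARID1B (2.51 ± 0.09), SMARCA2 (0.277 ± 0.03) and ACTL6B (0.232 ± 0.11), so that SMARCC2 had moved above PHF10. The NEC libraries overlapped for ARID1A and SMARCC2, for DPF1 and ARID1B, and for SMARCA2 and ACTL6B. These orders depend on the length used, here the union of exons over all transcripts (45931 bp for ARID1B, 15581 bp for SMARCA4, 7624 bp for SMARCC1). With the longest transcript as the length, SMARCC1 was at 84.9 ± 1.36 and SMARCA4 at 72.2 ± 2.05 in ESCs, while in NECs SMARCA4 (83.2 ± 4.43) lay above SMARCC1 (72.6 ± 3.91), so the wide gap between SMARCC1 and the other genes was not stable. In NECs ARID1B (10.6 ± 0.37) then also lay above DPF1 (5.18 ± 0.07). SMARCC2 was below PHF10 in ESCs and above it in NECs with either length.

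The balance between the 2 genes of a pair was read as the log2 ratio of their counts in each library, which does not depend on library scaling. SMARCA4 exceeded SMARCA2 by 4.94 and 4.68 in ESCs and by 6.67 and 6.33 in NECs, so the ratio was 3.23-fold higher in NECs. SMARCC1 exceeded SMARCC2 by 2.62 and 2.61 in ESCs and by 1.43 and 1.63 in NECs, a ratio 2.12-fold lower. Per exon length, SMARCC2 made up 11.9% and 12% of the pair in ESCs and 23.6% and 21.1% in NECs, or 16.9% and 17% against 31.7% and 28.7% with the longest transcript as the length.

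For PHF10 over DPF1 the log2 ratio was 3.07 and 3.25 in ESCs and 2.68 and 2.60 in NECs. For ACTL6A over ACTL6B it was 8.23 and 8.93 against 7.98 and 7.07, and ACTL6B stayed at or below 1.11% of the pair per length in every library. For both pairs of the neuronal switch the ratio was thus lower in both NEC libraries, while the progenitor gene remained the more abundant. DPF2, a BAF-specific relative of DPF1, also rose, from 80.1 ± 0.90 to 104 ± 7.66 CPM (0.38 ± 0.09 SE on the log2 scale, adjusted p = 0.0117 in edgeR). This change was near the 0.36 of DPF1, and a ratio of DPF2 to DPF1 was not computed. The ACTL6A to ACTL6B ratio rests on 4 to 18 ACTL6B counts, and its NEC minus ESC difference, −1.05 on the log2 scale, ran from −0.59 without NEC replicate 2 to −1.51 without NEC replicate 1. For ARID1A over ARID1B the ratios of 1.29 and 1.28 in ESCs lay between the 1.23 and 1.44 of the NEC libraries. With 2 libraries against 2, no test of these ratios was made.

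**Figure D2:**
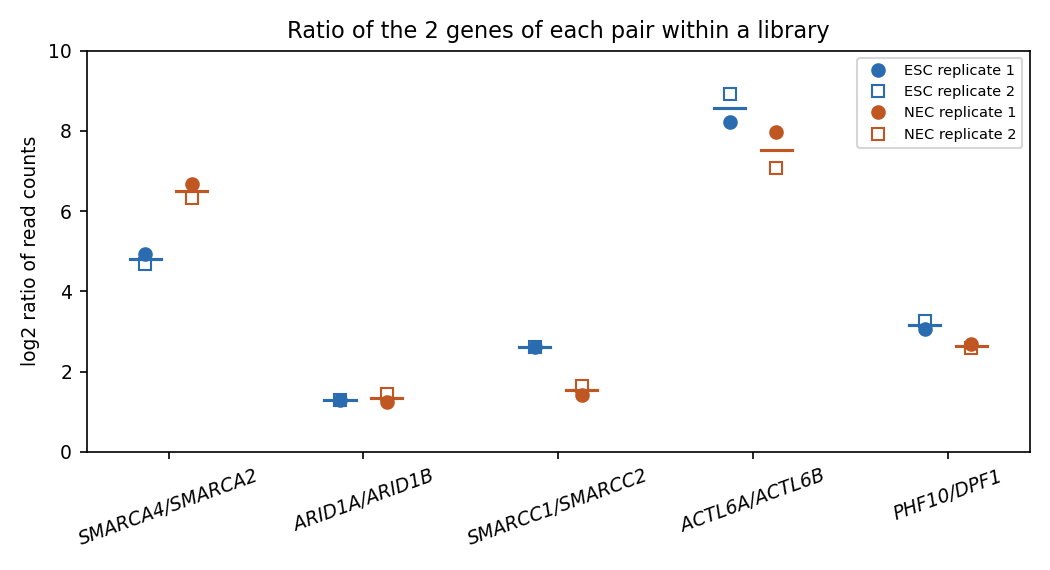
The log2 ratio of read counts of the 2 genes of each pair in the 4 libraries (ESC in blue, NEC in orange, replicate 1 as circles, replicate 2 as open squares, lines at the means of 2 libraries). The SMARCA4 to SMARCA2 ratio was higher and the SMARCC1 to SMARCC2 ratio lower in both NEC libraries, and the ARID1A to ARID1B ratios overlapped.

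Of 21 other SWI/SNF genes, 20 were tested, of which 8 rose, 3 fell and 9 did not pass. Over all genes tested, 31.5% rose and 29.7% fell. An absolute log2 fold change of 1.5 was also passed by 2 of the 20 that rose and 2 that fell, and by 21.0% of all genes in either direction. The median log2 fold change of the 20 genes was 0.0084, near the 0.01 of all genes. SMARCD3 (BAF60C), the accessory subunit linked to heart and neural development, rose from 5.40 and 5.46 CPM to 36.7 and 29.1 CPM, which is 2.60 ± 0.16 (SE) as a log2 fold change with an adjusted p of 7.26e-05 in edgeR. BCL7A, a small accessory subunit, rose from 17.7 and 18.5 to 66.5 and 55.0 CPM (1.75 ± 0.12 SE on the log2 scale, adjusted p = 0.000111 in edgeR). The zinc finger subunits moved the other way. BCL11A fell from 27.8 and 25.4 to 0.702 and 1.62 CPM (−4.48 ± 0.31 SE on the log2 scale, adjusted p = 9.97e-05 in edgeR), and BCL11B fell from 6.36 and 7.00 to 1.03 and 0.851 CPM (−2.83 ± 0.26 SE on the log2 scale, adjusted p = 0.000273 in edgeR).

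The other paralogs of the neuronal complex did not pass. DPF3 had 5 and 4 counts in ESCs and 14 and 10 in NECs and was removed by the filter. SS18L1 (CREST), the paralog that takes the place of SS18 in the neuronal complex, was at 26.9 and 29.6 CPM in ESCs and 30.9 and 31.1 CPM in NECs (0.13 ± 0.10 SE on the log2 scale, adjusted p = 0.303 in edgeR). The 7 remaining genes past the threshold ranged from −0.40 for KIAA0240 (BICRAL) to 0.94 for BCL7C on the log2 scale.

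**Figure D3:**
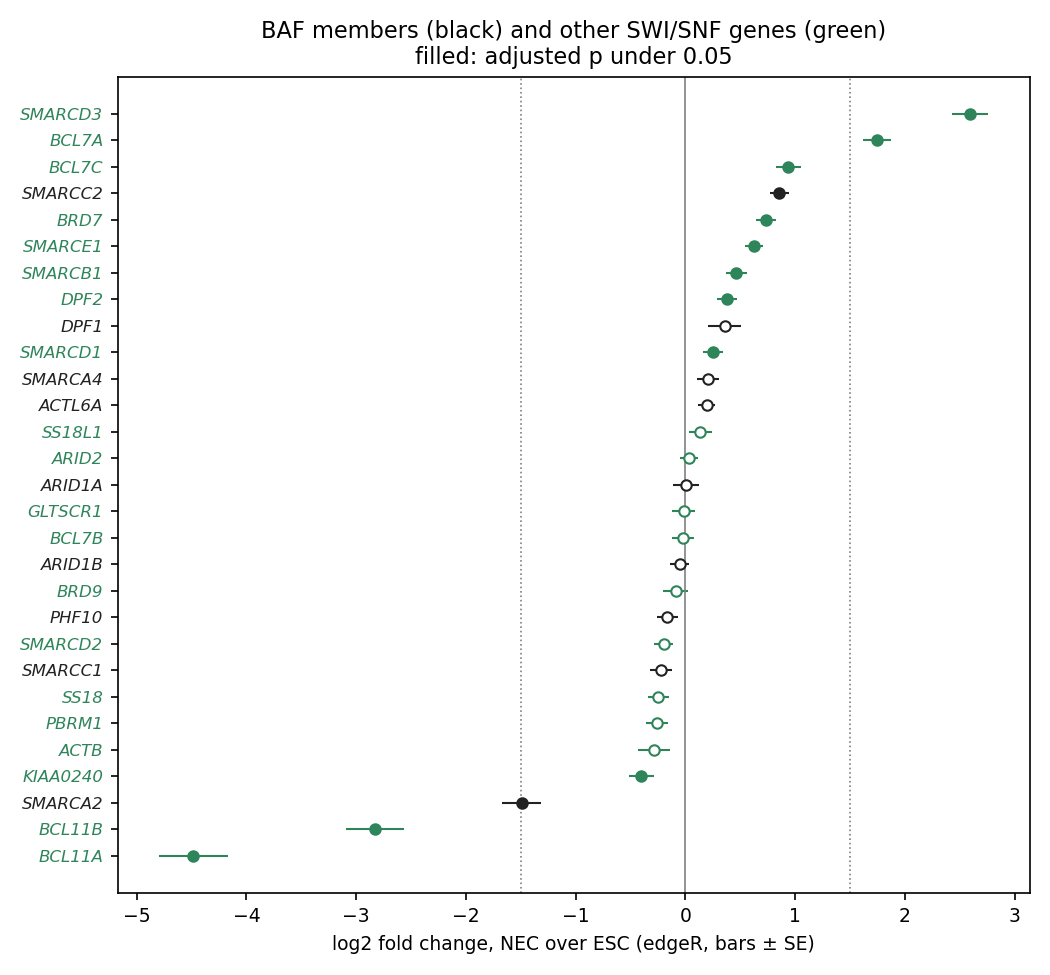
The log2 fold change of NECs over ESCs from edgeR (bars, ± SE) for the 9 tested BAF genes in black and 20 other SWI/SNF genes in green, filled where the adjusted p was under 0.05, with dotted lines at ±1.5. SMARCD3 and BCL7A lay beyond the upper line, BCL11A and BCL11B beyond the lower, and SMARCA2 just inside it.

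The authors scored each bait and fragment pair with CHiCAGO, and the lists held pairs with a score of at least 12, for single replicates and for both replicates of a cell type combined (merged). The replicate lists held 81168 to 100305 calls. They give no read numbers, so the depth behind a score is unknown. Both NEC replicates had more PIRs than both ESC replicates for 2 of the 10 genes (ARID1B and DPF1), against 14.0% of 22223 genes with their start in a bait. Both had fewer for 2 genes (SMARCA4 and SMARCC2), against 12.6% of those genes. The other 6 genes overlapped. At a score of at least 15, of these 4 genes only SMARCC2 still differed (3 and 1 PIRs in ESCs, 0 in both NEC replicates), and SMARCA2 and PHF10 had more PIRs in both NEC replicates. Over all 22223 genes, 6.90% had more and 4.36% fewer PIRs in both NEC replicates at that score.

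**Figure D4:**
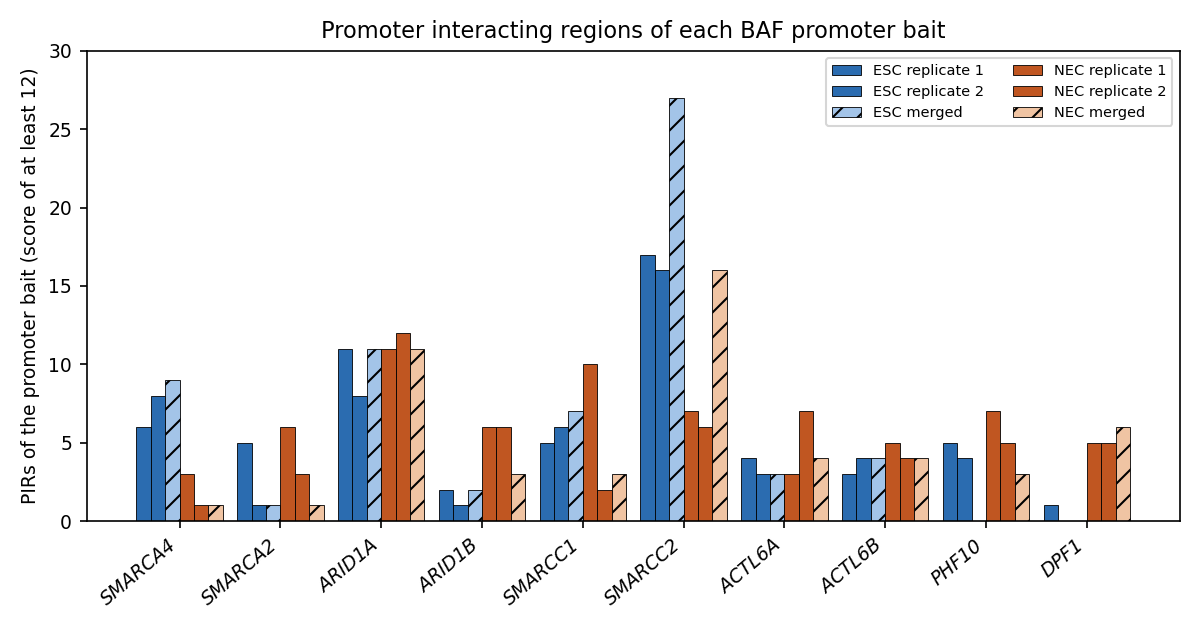
The number of PIRs of each BAF promoter bait at a CHiCAGO score of at least 12 in the 2 ESC replicates (blue), the 2 NEC replicates (orange) and the merged list of each cell type (hatched). SMARCC2 had the most PIRs in the merged lists (27 in ESCs and 16 in NECs), and DPF1 had none in the merged ESC list and 6 in the merged NEC list.

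The SMARCC2 bait (chr12:56581323-56586730) had 17 and 16 PIRs in the ESC replicates against 7 and 6 in the NEC replicates. The merged lists held 27 and 16 PIRs, of which 12 were shared. Of the 27 in ESCs, 7 were called in both replicates and 11 in neither. The highest merged score in both cell types was to the fragment centred 32.1 kb away that holds the MYL6 and MYL6B starts (chr12:56544084-56559741), with 23.5 in ESCs and 19.6 in NECs. That fragment also overlaps exons of SMARCC2, so the contact lies partly within the gene. It is itself a bait, which had 27 and 21 PIRs in the ESC replicates against 10 and 5 in the NEC replicates. In all 4 replicates the SMARCC2 bait contacted exons of ESYT1 and ZC3H10 (chr12:56518916-56523366, scores of 15.5 and 16.6 in ESCs and 12.6 and 14.9 in NECs). The number of PIRs of this bait was thus lower in NECs where the expression of SMARCC2 was higher. As the other end of calls made from further baits, however, the same fragment was listed 9 and 10 times in ESCs against 6 and 12 times in NECs, and these numbers overlapped.

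Called in both ESC replicates and neither NEC replicate were 4 PIRs of SMARCC2. They held exons of ESYT1 (chr12:56524618-56531399), RNF41 (chr12:56610100-56614585) and ANKRD52 (chr12:56645307-56646798) and the start of TIMELESS (chr12:56842593-56843551). The last was still in the merged NEC list, with a score of 13.3 against 18.4 in ESCs. The bait also holds the start of the RNA gene RP11-977G19.5, so a contact cannot be given to SMARCC2 alone.

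The SMARCA4 bait (chr19:11036045-11072769) had 6 and 8 PIRs in the ESC replicates against 3 and 1 in the NEC replicates. The merged lists held 9 and 1. The strongest in ESCs was within the gene itself, over its exons 112 kb downstream (chr19:11161969-11170744, score 16.2), and both ESC-specific PIRs were also within SMARCA4, over exons (chr19:11151759-11155664) and within an intron (chr19:11158708-11161968). These 3 fragments scored 13.2 and 15.8, 12.7 and 12.5, and 13.4 and 12.1 in the ESC replicates, and the first also 12.7 in NEC replicate 1. The single merged NEC call from this bait was to an intron of CARM1 (chr19:10992156-10999704, score 13.6), shared with ESCs. As the other end of calls from further baits, this bait was in the merged lists 0 times in ESCs and 1 time in NECs. The bait is 36725 bp long and also holds the starts of C19orf52 and YIPF2.

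The DPF1 bait (chr19:38709198-38723921) had 1 and 0 PIRs in the ESC replicates against 5 in each NEC replicate. From this bait the merged ESC list held no PIR and the merged NEC list held 6. Only 1 was called in both NEC replicates and neither ESC replicate, at 331 kb over exons of WDR87 (chr19:38384227-38387705, scores of 13.6 and 14.6). The highest merged score, 14.8, was to exons of DPF1 and SIPA1L3 (chr19:38693471-38707791), called in NEC replicate 1 only. No call of this bait reached 15 in any replicate. As the other end of calls from further baits, this fragment was listed 1 time per ESC replicate and 1 and 3 times in NECs. The merged lists held 2 such calls in ESCs and 4 in NECs.

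The ARID1B bait (chr6:157095363-157102195) had 2 and 1 PIRs in the ESC replicates against 6 in each NEC replicate. This bait also holds the start of RP11-230C9.2, so a contact cannot be given to ARID1B alone. Its contact 1464 kb away with the start of TFB1M, which encodes a mitochondrial rRNA methyltransferase (chr6:155633073-155637079), was called in all 4 replicates, with scores of 21.2 and 16.1 in ESCs and 13.1 and 12.03 in NECs. It was also the highest in the merged ESC list (19.7) but missing from the merged NEC list. The highest merged score in NECs, 17.0, was to an intergenic fragment (chr6:157003963-157012002) called in both NEC replicates (12.4 and 15.7) and neither ESC replicate. A further bait inside the gene (chr6:157438874-157441052) had 1 and 3 PIRs in ESCs against 4 and 1 in NECs, which overlapped.

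The other 6 promoters overlapped in PIR number between cell types. The ARID1A bait (chr1:27018057-27027743) had 11 and 8 PIRs in ESCs against 11 and 12 in NECs, and 4 were called in all replicates. These lay at the start of RPS6KA1 (chr1:26855141-26864507), in an intergenic fragment (chr1:26946472-26948299), at the start of PIGV (chr1:27112453-27115733) and over exons of GPN2 (chr1:27194265-27205526). The PIGV fragment had the highest merged score in ESCs (31.2) and the intergenic fragment the highest in NECs (36.9, against 24.8 in ESCs). By replicate the intergenic fragment overlapped between cell types, with scores of 21.1 and 16.2 in ESCs and 17.4 and 36.9 in NECs. A pair of intergenic fragments near this fragment were NEC-specific (chr1:26930359-26933765 and chr1:26948300-26952441, merged scores of 15.1 and 17.2), and the start of SFN (chr1:27188039-27194264, 16.6) was ESC-specific.

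The SMARCC1 bait (chr3:47821318-47835778) had 5 and 6 PIRs in ESCs against 10 and 2 in NECs, so that the NEC replicates lay on either side of the ESC replicates. Its highest merged score in both cell types was to the start of the cell cycle phosphatase CDC25A (chr3:48228725-48236166, 17.3 in ESCs and 16.6 in NECs). The starts of SCAP (chr3:47514073-47522114, 16.7) and C3orf75 (chr3:47551607-47559742, 17.0 in ESCs) were ESC-specific by replicate, the latter still at 12.2 in the merged NEC list. A fragment with the starts of CCDC12 and NBEAL2 (chr3:47012710-47041223, 12.4) was NEC-specific. A further bait inside the gene (chr3:47642666-47648585) had 5 and 4 PIRs in ESCs against 3 and 0 in NECs.

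The SMARCA2 bait (chr9:2014531-2018859) had 5 and 1 PIRs in ESCs against 6 and 3 in NECs, and each merged list held 1. In ESCs this was the start of DMRT1 1175 kb away (chr9:840113-843916, score 12.7). In NECs it was the start of KIAA0020 828 kb away on the other side (chr9:2842364-2846028, score 19.9), with 16.5 and 16.2 in the NEC replicates and no call in either ESC replicate. Among calls from this bait, the highest merged score was thus in the cell type in which the expression of SMARCA2 was lower. As the other end of calls from further baits, the fragment was listed 3 and 2 times in ESCs against 3 and 1 in NECs. The merged lists held 3 such calls in ESCs and 2 in NECs, and their scores were not compared. Both further baits inside the gene overlapped between cell types, with 3 and 4 PIRs in ESCs against 0 and 5 in NECs for the first (chr9:2037291-2046353) and 10 and 5 against 4 and 5 for the second (chr9:2161238-2165631).

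The ACTL6A bait (chr3:179278890-179288214) had 4 and 3 PIRs in ESCs against 3 and 7 in NECs. The start of PIK3CA (chr3:178863488-178867393), which encodes a catalytic subunit of PI3 kinase, was contacted in all 4 replicates, with 15.8 in the merged ESC list (the highest there) and 21.3 in the merged NEC list. In the merged NEC list the start of GNB4 (chr3:179154374-179171275) scored highest, at 24.9 against 14.9 in ESCs. By replicate both fragments overlapped between cell types. PIK3CA scored 16.5 and 15.8 in ESCs and 13.0 and 28.9 in NECs. GNB4 scored 17.8 in ESC replicate 1, had no call in ESC replicate 2, and scored 23.7 and 16.8 in NECs. The ACTL6B bait (chr7:100242483-100267766) had 3 and 4 PIRs in ESCs against 5 and 4 in NECs. Its highest merged score in both, 31.0 and 29.8, was to a fragment with the starts of FBXO24, LRCH4 and SAP25 (chr7:100162503-100186350), called in all 4 replicates at 16.8 to 23.8. A fragment with the starts of MEPCE and ZCWPW1 (chr7:100022010-100031308, 16.2) was NEC-specific. ACTL6B thus had scored contacts in both cell types at 4 to 18 counts of RNA.

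The PHF10 bait (chr6:170123684-170125638), at 1955 bp the shortest of the 10, had 5 and 4 PIRs in ESCs against 7 and 5 in NECs, tied at 5. This bait also holds the start of RP1-266L20.4, so a contact cannot be given to PHF10 alone. The neighbouring bait, which holds another annotated transcript start of PHF10 (chr6:170125639-170134202), went the opposite way, with 4 and 5 PIRs in ESCs against 2 and 1 in NECs. A bait over the far end of the gene (chr6:170096421-170108863) had 1 PIR in each ESC replicate against 6 and 2 in NECs. The PIR numbers of PHF10 thus depended on the bait taken. At the bait of the gene start, no PIR was in all 4 replicates or specific to a cell type. The merged ESC list held none. The merged NEC list held 3, the highest (23.1) to the starts of the Notch ligand gene DLL1 and FAM120B (chr6:170596253-170603648), which scored 18.9 and 22.1 in the NEC replicates and 12.7 in ESC replicate 2. The next (19.4) was to the starts of PSMB1 and of TBP, the TATA-binding protein gene (chr6:170856862-170864582).

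**Figure D5:**
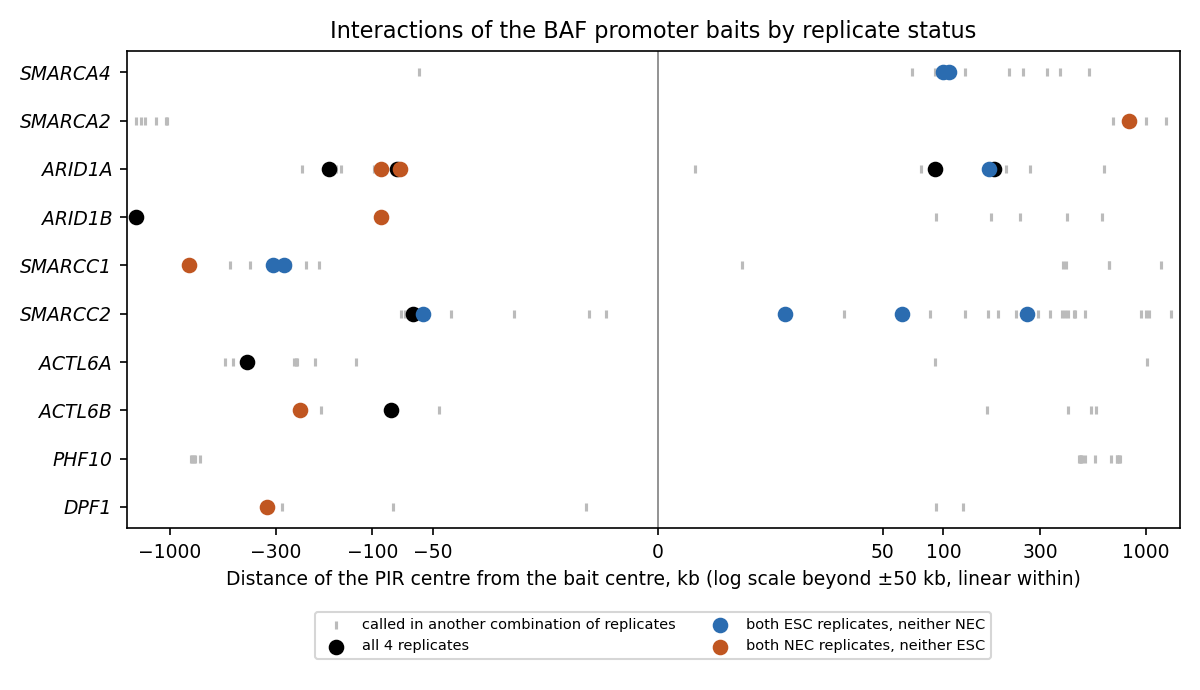
Distance in kb (log scale beyond 50 kb) from the centre of each BAF bait to its PIRs, drawn for 139 of the 147 pairs called in any replicate (8 lay beyond 1500 kb) with circles for pairs called in all 4 replicates (black), in both ESC replicates only (blue) or in both NEC replicates only (orange). ARID1A had 4 of the 8 pairs called in all 4 replicates, and SMARCC2 had 4 of the 9 ESC-specific pairs.

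Together the 10 baits had 147 pairs called in any replicate, all within a chromosome. Of these 8 were called in all 4 replicates (5.44%, against 2.85% over all baits), 9 in both ESC replicates only (6.12%, against 2.56%) and 7 in both NEC replicates only (4.76%, against 2.46%). Of the specific pairs, 2 of the 9 (22.2%, against 11.4% over all baits) and 1 of the 7 (14.3%, against 13.1%) were among the top 1 of 5 score groups of all specific pairs of that cell type (ranked by merged score) and had no call in the opposite merged list. In the merged lists 29 pairs were shared, which was 45.3% of the 64 ESC calls (95% Wilson interval 33.7% to 57.4%) and 55.8% of the 52 NEC calls. Over all baits these shares were 44.2% and 44.3%. The interval takes calls as independent, although 27 of the 64 ESC calls and 12 of the 29 shared pairs came from the SMARCC2 bait. At a score of at least 15 10 pairs were shared, of 25 ESC calls and 26 NEC calls (38.5%), and both shares were below the 46.5% and 43.0% of all baits, so the side on which the BAF baits lay depended on the score. Replicates of a cell type shared 33.3% to 41.2% of their calls at these baits, and replicates of different cell types 25.4% to 43.1%. Over all baits these shares were 21.0% to 26.6% and 19.3% to 26.7%.

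Of the 87 pairs in a merged list, 40 had a PIR with the start of a protein-coding gene, 33 more overlapped an exon, 6 lay within introns and 8 were intergenic. In 49 of the 87 the PIR was itself a bait. No list held a call between 2 of the 10 baits, of which the nearest (ARID1B and PHF10) lie 13.0 Mb apart, while the longest of the 147 pairs spanned 1.93 Mb.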

How the data were processed

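RNA-seq libraries and PCHi-C interaction lists of H9 ESCs and day 7 NECs were analysed, with 2 biological replicates of each, and the conventional Hi-C samples were not analysed here. The deposited RNA-seq values were made by the authors from trimmed single-end reads aligned with TopHat (version 2.0.8b per the labels), and are raw counts per gene of an Ensembl gene set, made without regard to strand. For PCHi-C, the authors mapped read pairs to GRCh37 with HiCUP, removed duplicates and deposited CHiCAGO scores, the negative log of a distance-weighted p-value, for pairs of HindIII fragments at or above 12. ESC replicate 2 pooled sequencing runs. The files hold no fragment read numbers, so the precision of a score is unknown, and the interval on a share of calls covers counting error only.

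Counts were filtered with filterByExpr (minimum count of 10), normalized by TMM and tested over all genes with edgeR 4.0.16 in R 4.3.3, with Benjamini-Hochberg adjustment. DESeq2 1.42.0 without independent filtering was an alternative, as were other scalings, filters, score thresholds, bait definitions and leaving out replicates. The edgeR step was tested on simulated data. The main fit did not pair libraries by replicate number, and the labels do not say whether same-numbered libraries were prepared together. The deviations of same-numbered libraries from their group means correlated at 0.061, which with 2 libraries per cell type cannot settle this. Exon lengths and gene annotation of PIRs came from a GENCODE release placed on GRCh37, gene positions from the count table, and printed sequences from the GRCh37 genome with Python 3.11.15. Ratios of counts used 0.5 added counts.

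The 10 genes, the other SWI/SNF genes, the marker lists and the tests were chosen with earlier results of these data known. All 10 genes were named, as were other SWI/SNF genes past an adjusted p of 0.05 with an absolute log2 fold change above 1, SMARCD3, DPF3 and SS18L1, and per bait the PIR with the highest merged score in each cell type and every PIR called in all 4 replicates or specific to 1 cell type. Other PIRs, DPF2, and the genes that share a bait or overlap a BAF gene, were named after their values were seen. Proteins were not analysed here.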

Additional observations from a re-analysis of the deposited data

How the results depend on the processing

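The rise of SMARCC2 and the fall of SMARCA2 held under every alternative run for expression. The number of BAF genes past the adjusted p was 4 with library size alone (ACTL6A and DPF1 in addition) and 2 to 4 leaving out single libraries, the 4 being without NEC replicate 2, where SMARCA4 and SMARCC1 passed as well. With the fold threshold the count was 1 (SMARCA2) with DESeq2's size factors, with the DESeq2 test and at an absolute log2 fold change above 1, and 0 to 1 leaving out single libraries. That 1 was SMARCA2 without ESC replicate 1 and without NEC replicate 2, and ACTL6B without NEC replicate 1 (log2 fold change 1.79, SE 0.62, edgeR adjusted p = 0.0465). Other SWI/SNF genes past the threshold numbered 11, and 7 to 14 leaving out single libraries, the 7 being without ESC replicate 2. With the replicate block, 2 BAF genes passed, the same SMARCC2 and SMARCA2, and 0 passed with the fold. For this block the labels give only a replicate number. For ARID1A the log2 fold change was −0.016 with DESeq2's size factors and −0.013 with the DESeq2 test, and it ran from −0.14 (without NEC replicate 2) to 0.14 leaving out single libraries, while for ARID1B it was 0.0099 with library size alone. The ARID1A to ARID1B ratio difference ran from −0.051 (without NEC replicate 2) to 0.16.

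At a score of at least 15, 3 genes differed in PIR number without overlap of the replicates, but only SMARCC2 among those at 12, with SMARCA2 and PHF10 (NEC higher) in place of ARID1B, DPF1 and SMARCA4, and 2 pairs were called in all 4 replicates. Leaving out single PCHi-C replicates, an alternative chosen after seeing the data, gave 5 to 8 genes without overlap, 7 of them without ESC replicate 1 and without NEC replicate 1 and 8 without NEC replicate 2, where 52.7% to 54.7% of all 22223 genes with a bait did not overlap either. The share of merged ESC calls also called in NECs was 65.6% with PIRs within 10 kb counted as shared, against 65.2% over all baits. Between single replicate lists, the mean share of ESC calls also called in NECs was 25.5% to 37.7% on leaving out each replicate in turn. In the highest of 5 groups of scores, 2 ESC-specific and 1 NEC-specific pairs remained. Causes of these changes were not tested. With 2 replicates against 2 and no read numbers behind the scores, a difference in PIR number could not be tested.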
